A study of Homo sapiens with 14 samples.

Results

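The 3′ part of domain V of human 28S rRNA, which holds the P loop, the A loop and the peptidyl transferase ring, was taken as nucleotides 4176 to 4576 of the deposited 28S profile. All 401 nucleotides in these limits had a score with each of 3 acylating reagents, and they made up 7.97% of the 5034 scored nucleotides of 28S (7 to 5040 of 5070). The members were set by position, with earlier results of these data known, and the reference was the other 4633 scored nucleotides.

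HEK293 cells, a line from human embryonic kidney whose cells contain Adenovirus 5 DNA per the labels, were treated for 10 min with AcIm (100 mM), AcIN3 (200 mM), NAIN3 (100 mM) or DMSO (10%). The series counts 14 samples in 7 groups of 2, of which 8 samples in 4 groups are of 18S and 28S rRNA cut from agarose gels of total RNA. The 3 reagent groups on rRNA have values here, each given by the authors as a mean R-score per nucleotide, a score of modification from 0 to 1. The DMSO group and the polyadenylated RNA groups were not analysed here.

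AcIm is acetylimidazole, whose acyl group is a small acetyl, and NAIN3 is the azide-bearing nicotinic acid imidazolide NAI-N3, whose acyl group holds an aromatic ring. These reagents were matched in dose and time. AcIN3 is known here only by that name and was used at a higher dose, so its values stand beside the others. Where 3 scores or ranks are listed without names, they are for AcIm, AcIN3 and NAIN3 in this order. Because only means were available, no difference has a replicate error or a test. Intervals on shares and medians are exact 95% intervals that treat nucleotides as independent and cover neither replicate spread nor depth, which is unknown.

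Of 5 28S gene copies listed in RefSeq for GRCh38.p14, only RNA28SN5 has the 5070 nucleotides of the profile. It lies at 113348 to 118417 of a sequence without an assigned chromosome, and its product is a non-coding rRNA, so no UTR or coding exon applies. The identity of the functional nucleotides rests on this numbering and on the conserved correspondence with Escherichia coli 23S rRNA, since no rRNA sequence was used here to check the bases.

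The peptidyl transferase centre is made of RNA. The P loop pairs with the CCA end of the tRNA that carries the growing peptide, and the A loop pairs with the CCA end of the incoming aminoacyl-tRNA. Between them a ring of conserved single strands surrounds the site of peptide bond formation, and helices 89 to 93 radiate from or pack against it. Acylating probes react with the 2′-hydroxyl of the ribose, mainly where the nucleotide is flexible and the reagent can reach it, and the adduct is read at reverse transcription.

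**Figure D1:**
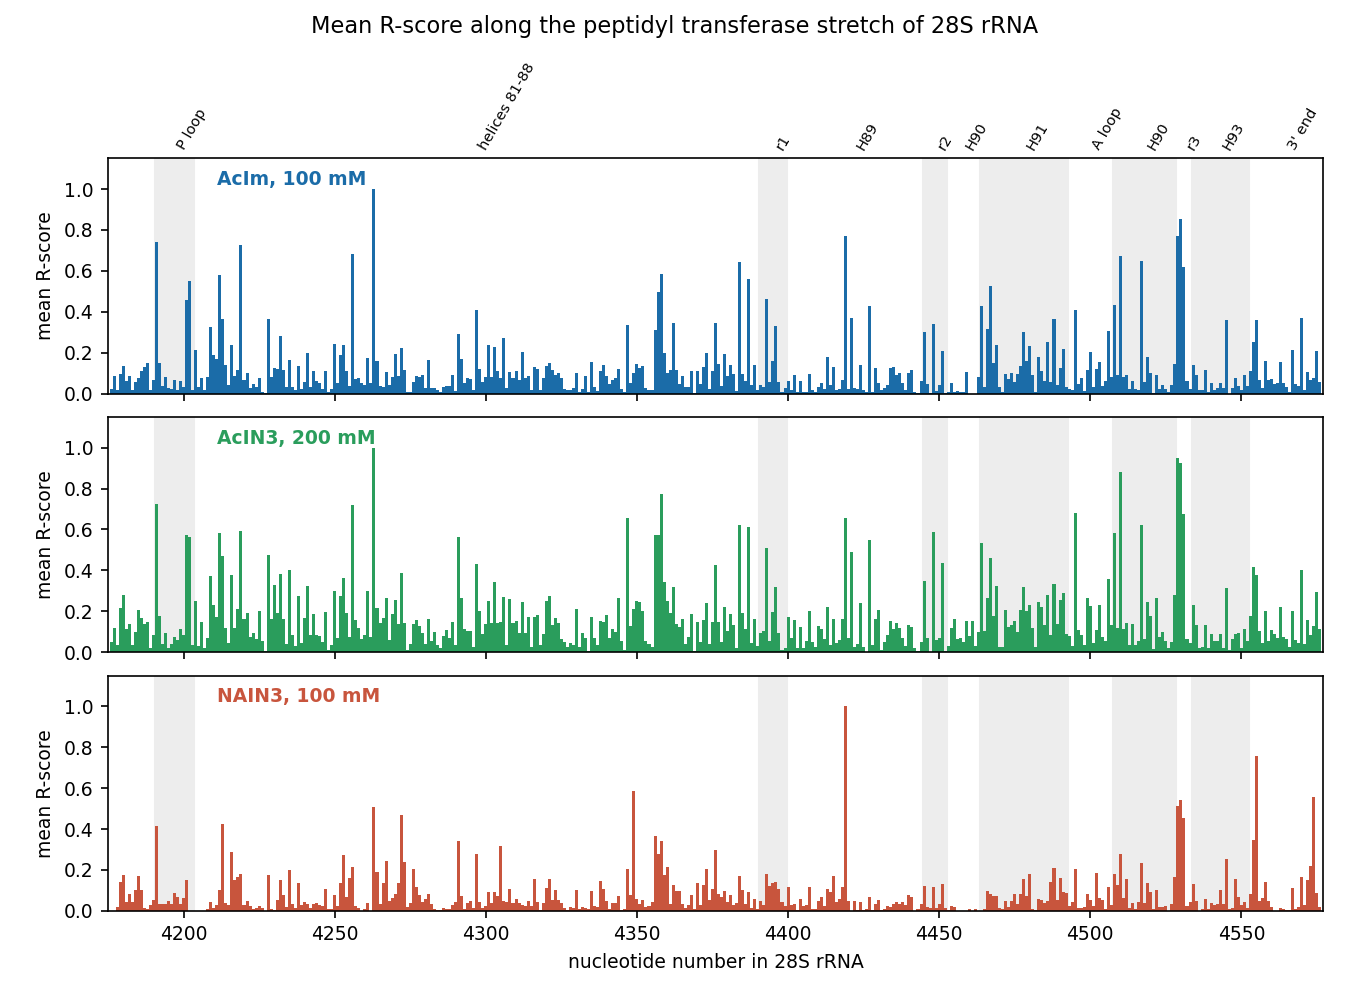
Mean R-score (vertical axis, 0 to 1, no unit) of each of the 401 nucleotides against its number in 28S rRNA, with a panel for each reagent, each bar being a mean of 2 replicates. Labels mark the P-loop and A-loop hairpins, the ring strands (r1, r2, r3) and helices (H); nt 4263 stands at 1 with AcIm and AcIN3, nt 4419 at 1 with NAIN3, and nt 4529 to 4531 are high in all panels.

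Most nucleotides of the stretch had low scores with every reagent, and a few single nucleotides stood far above their neighbours. The median score was 0.074 with AcIm (interval 0.061 to 0.0805), 0.119 with AcIN3 (0.104 to 0.1355) and 0.041 with NAIN3 (0.038 to 0.047). In the rest of 28S the medians were 0.0655, 0.0985 and 0.032. The medians of the rest lay below the interval of the stretch with AcIN3 and NAIN3 and within it with AcIm.

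At the upper end the reagents parted. A nucleotide was called highly reactive when it was among the 503 highest scores of 28S with that reagent, the top 10%, which is 9.99% of all scored nucleotides. With AcIm 38 members were in that class (9.48%, interval 6.79 to 12.8), against 10.0% of the rest of 28S, and with AcIN3 41 members were (10.2%, 7.44 to 13.6), against 9.97%. With NAIN3 only 24 members were (5.99%, 3.87 to 8.77), against 10.3% of the rest. Scores above 0.5 gave the same picture, with 16 members for AcIm (3.99%, against 4.68% elsewhere), 26 for AcIN3 (6.48%, against 5.53%) and 7 for NAIN3 (1.75%, against 3.78%).

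The low share with NAIN3 depended on the limit. With the top 5% as the limit, 2.74% of members were in it with NAIN3, 4.24% with AcIm and 6.23% with AcIN3. With the top 20% as the limit, 18.7% of members were in it with NAIN3, 17.2% with AcIm and 20.2% with AcIN3. The lowest share at that limit was that of AcIm. The 90th percentile of the stretch was 0.178 with NAIN3, where the rest of 28S had 0.245, while its 10th percentile was 0.0065 against 0. Scores of exactly 0 were also fewer with NAIN3, at 24 members (5.99%) against 10.5% elsewhere. The NAIN3 profile of the stretch was thus narrower at both ends than that of the pooled rest. Such narrowness was not particular to the stretch, since domain III had a NAIN3 90th percentile of 0.18 and 6.59% zeros. The core of domain I had 5.13% zeros with NAIN3.

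**Figure D2:**
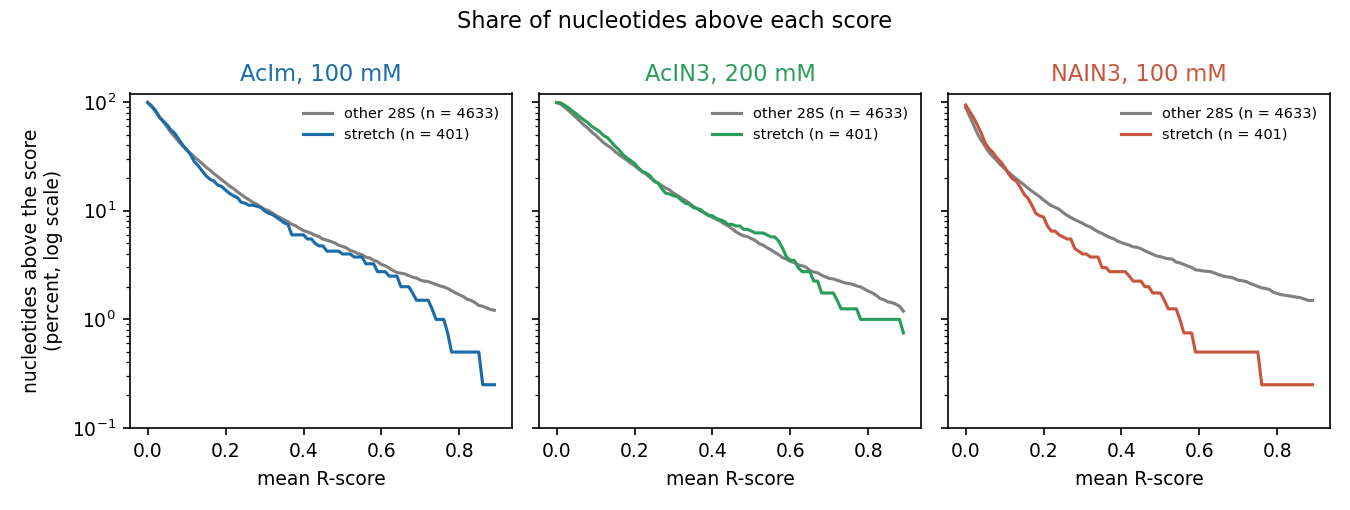
Share of nucleotides above each mean R-score (vertical axis, percent, log scale; horizontal axis, score) in the 401-nucleotide stretch (coloured) and in the other 4633 scored nucleotides of 28S (grey). For NAIN3 the coloured line runs below the grey one at high scores, and 1.75% of the stretch and 3.78% of the rest lie above 0.5.

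Members at the edge of the highly reactive class differed little in score. With AcIm nt 4466 (0.3145) was the lowest inside and nt 4356 (0.3095) the highest outside, the latter tied with the limit of 0.3095. With AcIN3 these were nt 4209 (0.373) and nt 4253 (0.3635), and with NAIN3 nt 4267 (0.2415) and nt 4273 (0.238).

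When 28S was divided into 9 consecutive parts along its domains, the stretch had the lowest share of highly reactive nucleotides with NAIN3, and domain III was next with 6.40%. Its neighbours in the sequence had 9.71% (56 of 577, domain IV with the L1 stalk) and 9.27% (43 of 464, domain VI). The highest share with NAIN3 was 13.9%, in expansion segment ES27L, which is a long insertion at the surface of eukaryotic ribosomes. By the same share the stretch stood 5th of 9 with both AcIm and AcIN3. By median it stood 7th from the lowest with AcIm and with NAIN3, and highest of the 9 with AcIN3. Without ES7L and ES27L, the reference of 3035 nucleotides had shares of 8.76% with AcIm, 9.16% with AcIN3 and 9.03% with NAIN3. Base composition was not examined, since no rRNA sequence was used.

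**Figure D3:**
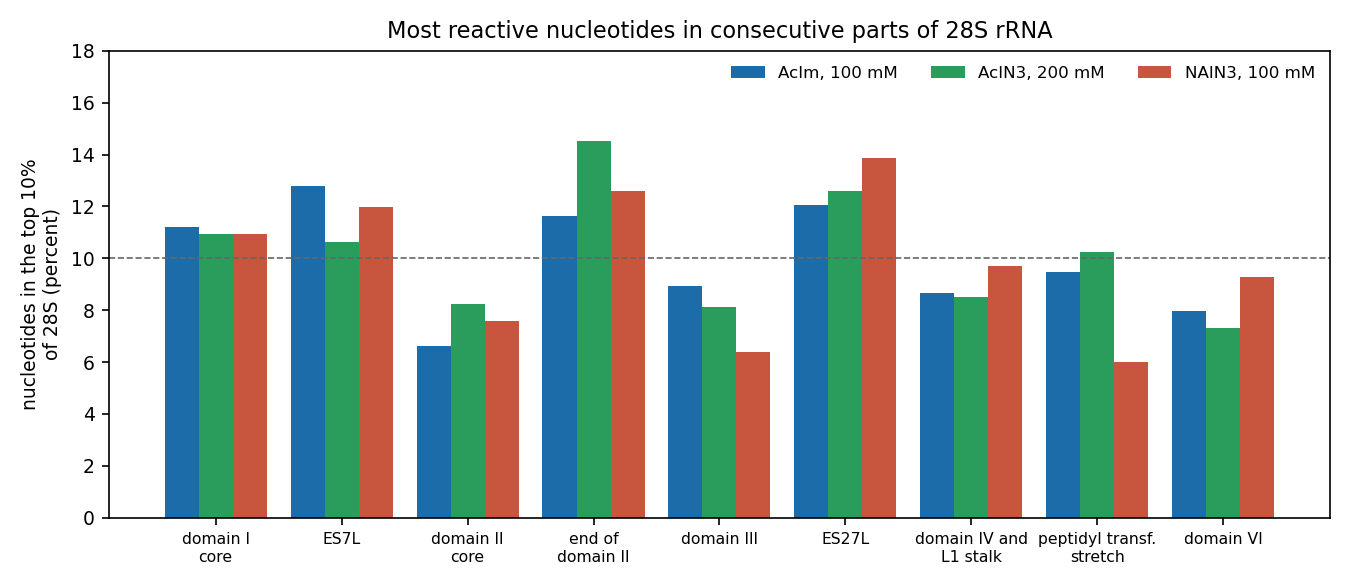
Percent of nucleotides in the top 10% of 28S scores (vertical axis) in 9 consecutive parts of 28S, for 3 reagents; the dashed line marks 10%. The peptidyl transferase stretch has 9.48%, 10.2% and 5.99% with AcIm, AcIN3 and NAIN3, the last being the lowest NAIN3 bar.

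The classes of AcIm and AcIN3 largely coincided in the stretch. They shared 33 nucleotides, 86.8% of AcIm's and 80.5% of AcIN3's, where in the rest of 28S the shares were 73.5% and 74.0%. AcIm and NAIN3 shared 14 nucleotides, 36.8% of AcIm's and 58.3% of NAIN3's, against 52.3% and 50.7% in the rest. Of the members, 20 (4.99%, against 3.28% elsewhere) were highly reactive with both AcIm and AcIN3 and not with NAIN3. Only 5 (1.25%, against 4.58% elsewhere) were so with NAIN3 alone, namely nt 4253, 4267, 4305, 4349 and 4574.

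Across the 401 members the scores of AcIm and NAIN3 had a Spearman rho of 0.68, and those of AcIm and AcIN3 0.93 (AcIN3 and NAIN3 0.68). Across the other 4633 nucleotides the values were 0.62, 0.88 and 0.55. These are descriptions across nucleotides of one rRNA, which share base composition, structure and any DMSO background. The percentile rank of a nucleotide is its place among all scored 28S nucleotides with the same reagent, from the lowest score to 100 at the highest. Members above rank 50, the median, with all 3 reagents numbered 167 (41.6%, against 32.2% elsewhere), and those below rank 50 with all 3 numbered 116 (28.9%, against 33.3%).

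In the P-loop hairpin (helix 80, nt 4191 to 4203) the highest score lay at its first nucleotide, nt 4191, with scores of 0.7395 (AcIm), 0.726 (AcIN3) and 0.416 (NAIN3). The loop's own guanosines were below rank 50 with AcIm and AcIN3. Nucleotide 4196, the equivalent of E. coli G2251, which is ribose-methylated and pairs with the P-site tRNA, had 0.024, 0.038 and 0.031. Nucleotide 4197, the equivalent of G2252, which pairs with the same tRNA, had 0.0645, 0.0765 and 0.0855. The percentile rank of nt 4197 in 28S was 49.5 with AcIm, 40.7 with AcIN3 and 72.3 with NAIN3. At the 3′ end of the hairpin nt 4202 had 0.551 with AcIm, 0.5645 with AcIN3 and 0 with NAIN3, the widest rank difference in the stretch (96.1, 95.9 and 5.10).

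The longest segment, nt 4204 to 4390, took in helices 81 to 88 and the strand that leads to the peptidyl transferase ring, with 187 nucleotides. Its medians were 0.084 (AcIm), 0.144 (AcIN3) and 0.041 (NAIN3), and it held 15, 20 and 14 of the highly reactive members. Nucleotide 4263 was the highest of the whole stretch with AcIm and AcIN3, at 1.0 in both, and had 0.506 with NAIN3. Nucleotide 4219 had 0.7245, 0.5925 and 0.1805, and nt 4256 had 0.681, 0.719 and 0.2145, so both fell below the NAIN3 limit. Nucleotide 4220, a listed m6A set by ZCCHC4 and next to nt 4219, had 0.0655, 0.1605 and 0.03, which was far lower than its 5′ neighbour with every reagent.

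The longest run in which every nucleotide lay above the median rank with all 3 reagents was nt 4356 to 4363, 8 nucleotides with medians of 0.254 (AcIm), 0.332 (AcIN3) and 0.193 (NAIN3). Within it, nt 4358 reached 0.5855, 0.774 and 0.342. The run included the pseudouridine at nt 4361, which had 0.116, 0.1915 and 0.0335. Runs of 6 (nt 4301 to 4306) and 5 nucleotides (nt 4269 to 4273) followed, with other runs of 5 nucleotides at nt 4320 to 4324, 4476 to 4480 and 4508 to 4512. The longest run anywhere in 28S had 13 nucleotides. The longest low run was nt 4282 to 4286, with 5 nucleotides and medians of 0.0265, 0.0565 and 0.011, and nt 4326 to 4329 and 4523 to 4526 each had 4.

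Helix 89 (nt 4400 to 4444), which extends from the ring along the path of the incoming tRNA, was low over most of its 45 nucleotides, with medians of 0.0425, 0.071 and 0.0345. It nevertheless held the highest NAIN3 score of the stretch, nt 4419, at 1.0 with NAIN3, 0.7725 with AcIm and 0.657 with AcIN3. A near neighbour, nt 4421, had 0.37 with AcIm, 0.491 with AcIN3 and 0 with NAIN3. Nucleotide 4427 had 0.4265, 0.5485 and 0.066.

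The ring strands differed among themselves. The strand nt 4391 to 4399 holds the equivalents of E. coli A2451 and C2452, which line the A-site side of the centre and are contacted by many antibiotics. Its medians were 0.0555, 0.095 and 0.107, and as ranks 44.4 with AcIm, 48.1 with AcIN3 and 76.9 with NAIN3, so its typical nucleotide stood higher within the NAIN3 profile. The strand nt 4445 to 4452 was low, with medians of 0.0445, 0.071 and 0.027. The strand nt 4529 to 4533 was the highest of all segments, with medians of 0.6165, 0.6745 and 0.454, over 5 nucleotides.

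In that last strand 3 consecutive nucleotides were high. Nucleotide 4529 had 0.7695 with AcIm, 0.951 with AcIN3 and 0.514 with NAIN3, nt 4530 had 0.8515, 0.9235 and 0.5405, and nt 4531, the equivalent of U2585 that contacts the nascent peptidyl-tRNA end, had 0.6165, 0.6745 and 0.454. The next nucleotide, nt 4532, a listed pseudouridine, fell to 0.0595, 0.062 and 0.0225. Nucleotide 4530 is a listed m3U, a base methylation that stops reverse transcriptase without any reagent, and how the R-score treats such a stop is not stated in the sources. Its part in these values was not tested. Without nt 4528 to 4532 the shares of highly reactive members were 8.84%, 9.60% and 5.30%.

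Of 13 listed peptidyl transferase nucleotides, 5 were highly reactive with AcIm, 5 with AcIN3 and 3 with NAIN3, beside 9.99% of all 28S nucleotides for each reagent. The 3 with NAIN3 were the adjacent nt 4529, 4530 and 4531, which hold the listed m3U, and they were also among the 5 with AcIm and AcIN3. The others were nt 4393 and nt 4396 with AcIm, and nt 4393 and nt 4451 with AcIN3. Scores of the 13 ran from 0.0035 to 0.8515 with AcIm, 0 to 0.951 with AcIN3 and 0.012 to 0.5405 with NAIN3. The median rank was 54.9, 47.4 and 80.5. NAIN3 gave the higher rank than AcIm at 7 of the 13, where 57.9% of all members and 52.6% of the rest of 28S had that order, so the count of 7 was near the background.

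Among them, nt 4393, the equivalent of E. coli G2447 behind the active site, had 0.46, 0.51 and 0.18. Nucleotide 4396, the equivalent of A2450, had 0.33, 0.3175 and 0.142. Nucleotide 4397, the equivalent of A2451 at the heart of the centre, had 0.0565, 0.093 and 0.107, and its neighbour nt 4398 had 0.009, 0.011 and 0.043. Nucleotides 4393 and 4396 thus stood above nt 4397 and nt 4398 with all 3 reagents.

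The strand nt 4445 to 4452, which lies toward the entrance of the exit tunnel, held some very low values. Nucleotide 4452, the equivalent of U2506, had 0.0035, 0.0055 and 0.016. Nucleotide 4447, a listed m5C set by NOP2, had 0.0035, 0 and 0.012. Directly before nt 4452, nt 4451, the equivalent of G2505, had 0.209, 0.438 and 0.131. Nucleotides 4449 and 4450, the equivalents of A2503 and U2504, had 0.0125, 0.058 and 0.013, and 0.0415, 0.071 and 0.0335. Nucleotide 4548, the equivalent of the flexible A2602 in helix 93, had 0.076, 0.0875 and 0.154, at ranks of 54.9, 45.3 and 83.4.

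The A-loop hairpin (helix 92, nt 4493 to 4507) had medians of 0.076, 0.106 and 0.0415 and no nucleotide in the highly reactive NAIN3 class. Its highest nucleotide was nt 4495, with 0.4075, 0.679 and 0.205. Nucleotide 4499, the equivalent of G2553 that pairs with the incoming tRNA and is ribose-methylated, had 0.116, 0.2655 and 0.0835, and nt 4498, the ribose-methylated equivalent of U2552, had 0.0125, 0.033 and 0.0185. Both lay below the limit of the highly reactive class with all 3 reagents. Further along, nt 4500 had 0.2025, 0.225 and 0.055, nt 4501 had 0.03, 0.046 and 0.0255, and nt 4502 had 0.1185, 0.108 and 0.183. Of the 5 listed A-loop nucleotides, nt 4498 and nt 4502 had a higher score with NAIN3 than with AcIm.

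The strands of helix 90, from which helices 91 and 92 branch, were unlike each other with AcIm and NAIN3, and less so with AcIN3. Its 5′ strand, nt 4453 to 4463, had medians of 0.0055 (AcIm), 0.0805 (AcIN3) and 0 (NAIN3), and 0 was the score at 3 of its 11 nucleotides with AcIm and at 6 with NAIN3. Its highest scores were 0.1035, 0.1605 and 0.0255. Its 3′ strand and flank, nt 4508 to 4528, had medians of 0.061, 0.1135 and 0.041 and included nt 4510, with 0.6715, 0.881 and 0.2775. Helix 91, nt 4464 to 4492, had medians of 0.1115, 0.2015 and 0.06, and helix 93, nt 4534 to 4552, had 0.037, 0.062 and 0.0345. At the ends of the stretch, the 15 nucleotides before the P-loop hairpin had medians of 0.076, 0.119 and 0.044 and none in a highly reactive class, and the 24 nucleotides of the 3′ end, nt 4553 to 4576, held 2, 3 and 3.

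Members high with all 3 reagents were 13 (3.24%, against 4.03% of all 28S nucleotides and 4.10% of the rest). They were nt 4191, 4213, 4263, 4297, 4357, 4358, 4376, 4419, 4510, 4529, 4530, 4531 and 4555. Near the 3′ end, nt 4555 had 0.359, 0.3775 and 0.7565, the second highest NAIN3 score of the stretch. The members of this group not yet described had scores of 0.346 to 0.495 with AcIm, 0.4255 to 0.5735 with AcIN3 and 0.2775 to 0.4235 with NAIN3.

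Members that were highly reactive with AcIm and below rank 50 with NAIN3 were 3 (0.748%), where this held for 0.735% of all 28S nucleotides. They were nt 4202, nt 4421 and nt 4464, and all had a NAIN3 score of 0, with nt 4464 at 0.427 with AcIm and 0.5325 with AcIN3. The reverse order was met by 0 members, which allows a share of up to 0.916% by the exact interval, and by 0.556% of all 28S nucleotides, so its absence cannot be told from the background. Whether a NAIN3 score of 0 came from low signal or from missing coverage cannot be told apart. Moved by 1 nucleotide in either direction, NAIN3 gave 15 and 14 members in the first class and 9 and 4 in the second. The share over all 28S nucleotides was not taken with NAIN3 moved, so these counts have no background beside them.

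The means alone bound the replicates, since a mean m of 2 values between 0 and 1 puts each between 2m − 1 and 2m. In this way each AcIm replicate was placed above each NAIN3 replicate at 2 members, nt 4202 and nt 4219 (0.499%, beside 1.09% of all 28S nucleotides). The reverse held at 0 members, beside 0.854% of all 28S nucleotides. For AcIN3, at its higher dose, the bound over NAIN3 was met at 5 members (1.25%, beside 1.47% of all 28S nucleotides), nt 4202, 4256, 4387, 4464 and 4510. Of these, nt 4387 in the strand before the ring had 0.56, 0.6115 and 0.0935.

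**Figure D4:**
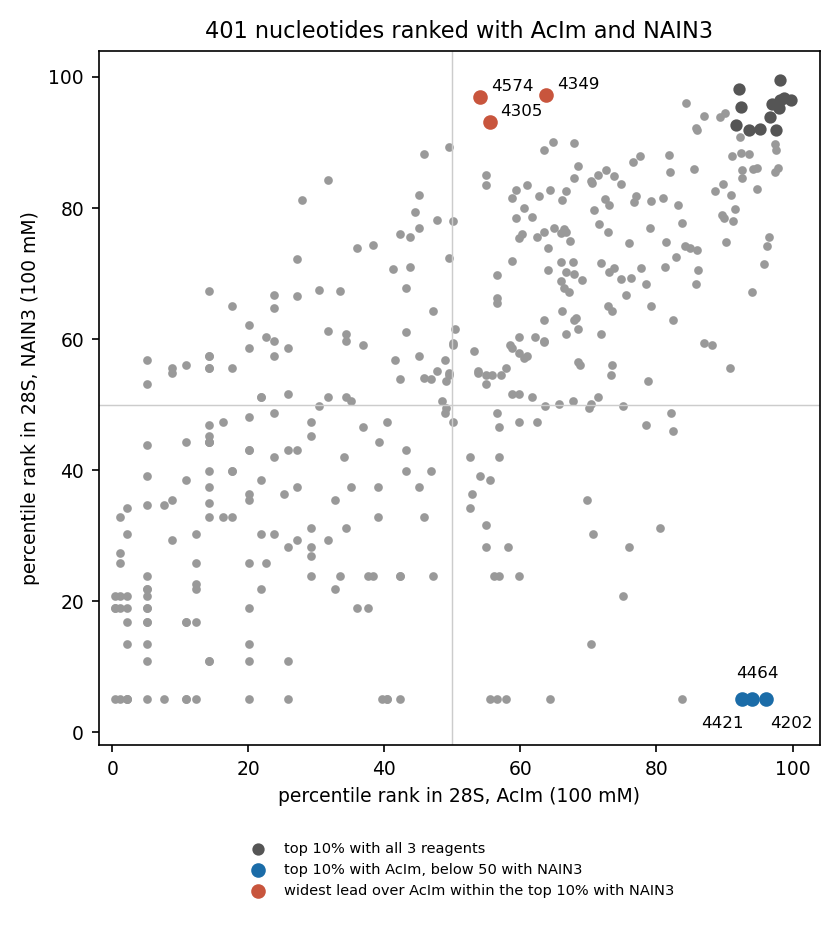
Percentile rank in 28S with NAIN3 (vertical axis) against that with AcIm (horizontal axis) for the 401 nucleotides, 1 point each; grey lines mark rank 50. The 3 blue points, nt 4202, 4421 and 4464, lie at rank 5.10 with NAIN3 and above 92 with AcIm; the red points nt 4305, 4349 and 4574 have the widest lead over AcIm among members in the top 10% with NAIN3.

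Among members in the top 10% with NAIN3, those with the widest lead in rank over AcIm lay above rank 50 with AcIm too. Nucleotide 4574 had 0.0745 with AcIm, 0.128 with AcIN3 and 0.5545 with NAIN3, at AcIm and NAIN3 ranks of 54.1 and 97.0. Nucleotide 4349 had 0.101, 0.212 and 0.5865, and nt 4305, which precedes the ribose-methylated nt 4306, had 0.077, 0.1465 and 0.319. Nucleotides 4267 and 4272 had 0.105, 0.2655 and 0.2415, and 0.2215, 0.3855 and 0.471. Outside the top 10% wider leads occurred at low AcIm ranks, chosen here after their values were seen. Nucleotide 4266 had ranks of 27.9 with AcIm and 81.2 with NAIN3, at scores of 0.032 and 0.1365. Ranks at nt 4255 were 31.8 and 84.3, at scores of 0.037 and 0.1625. In the P-loop hairpin nt 4198 had ranks of 14.2 and 67.4, at scores of 0.0185 and 0.0665.

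Zeros of NAIN3 were clustered. Of the 24, the 2 largest groups held 13: nt 4202 to 4207, all 6 at 0, and nt 4456 to 4464, with 7 of 9 at 0. AcIm scores were 0.015 to 0.551 in the first and 0 to 0.427 in the second, and AcIN3 scores 0.02 to 0.5645 and 0.029 to 0.5325. Over the 24 nucleotides AcIm was above 0 at 23, with a median of 0.0393, and AcIN3 was above 0 at all 24, with a median of 0.071. The opposed nt 4202 and nt 4464 lie at the 5′ and 3′ ends of these groups.

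Ribose-methylated nucleotides lack the free hydroxyl that the reagents acylate. The 13 listed members had median ranks of 20.1 (AcIm), 34.1 (AcIN3) and 47.4 (NAIN3), and 9, 8 and 8 of them lay below rank 50, where 47.4%, 43.4% and 40.9% of all members did. Um4227, Cm4456 and Cm4536 had a NAIN3 score of 0. Gm4228 was the exception at the top, with 0.366, 0.477 and 0.1755, and Um4306 had 0.271, 0.268 and 0.047. Gm4370 had 0.109, 0.146 and 0.137. The others, apart from Gm4499, were at or below 0.0335 with AcIm. The nucleotides 5′ of them had median ranks of 23.8, 43.7 and 43.0, and those 3′ of them 56.8, 66.3 and 62.9. The 5′ neighbours include the listed Um4227 and Um4498, and the 3′ neighbours include Gm4228 and Gm4499. These medians are therefore not of unmethylated nucleotides alone.

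Pseudouridines were low as well. The 19 listed members had median ranks of 20.1, 37.5 and 32.8. Of these, 16, 14 and 15 lay below rank 50, where 47.4%, 43.4% and 40.9% of all members did. None was in the highly reactive class of any reagent. That class held only 9.48%, 10.2% and 5.99% of all members, so its absence among 19 nucleotides says little. Their 5′ neighbours had median ranks of 63.5, 70.2 and 67.1, and their 3′ neighbours 54.9, 51.4 and 53.1. The highest were nt 4312, with 0.2025, 0.243 and 0.0285, nt 4500, and nt 4361, and with NAIN3 nt 4549, at 0.0665. The lowest with AcIm was nt 4521, at 0.0035, with AcIN3 nt 4431, at 0.013, and with NAIN3 nt 4442 and nt 4457, both at 0. All of them are uridines, and unmodified uridines of the stretch were not set beside them because no rRNA sequence was used, so modification and base cannot be told apart.

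**Figure D5:**
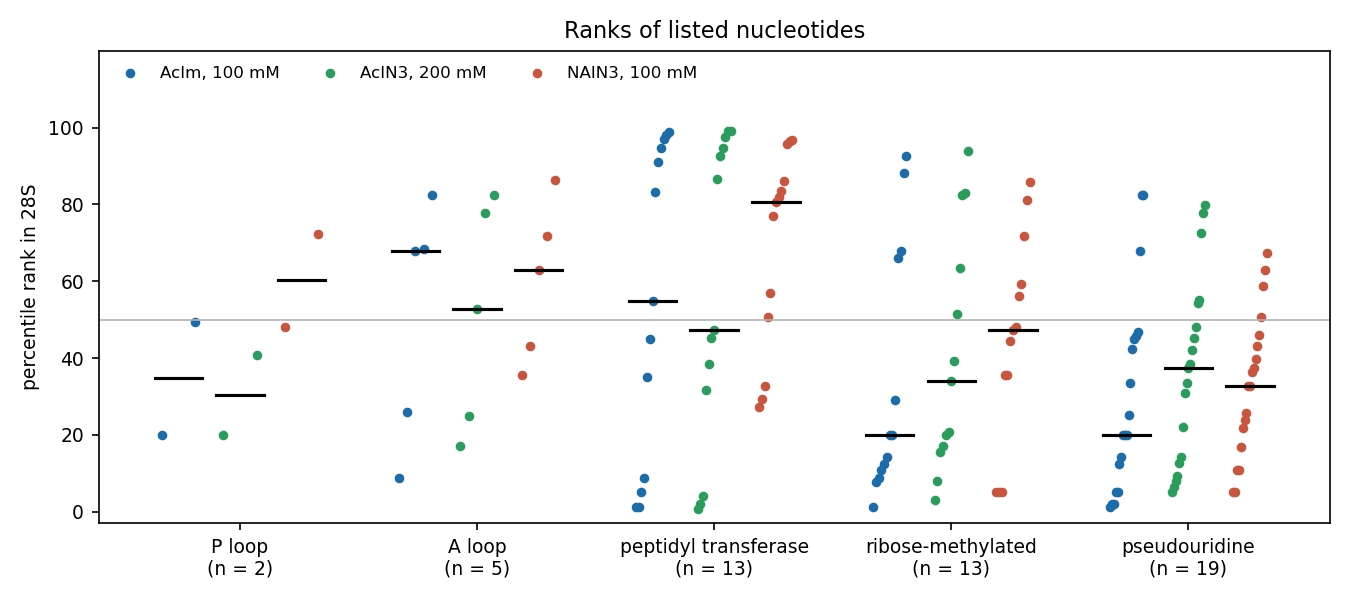
Percentile rank in 28S (vertical axis) of the listed P-loop, A-loop, peptidyl transferase, ribose-methylated and pseudouridine nucleotides, 1 point per nucleotide and reagent, with black bars at the medians and a grey line at rank 50. Peptidyl transferase nucleotides spread over nearly the whole scale with AcIm and AcIN3, and the median of the pseudouridines is 20.1, 37.5 and 32.8 with AcIm, AcIN3 and NAIN3.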

How the data were processed

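The deposited values are the authors' mean R-scores per nucleotide, a score between 0 and 1, for AcIm, AcIN3 and NAIN3 on 28S rRNA, used as deposited. Bowtie2 and the build GRCh38 are named per the submitters' processing notes, without a version. No source used here gives the formula of the score, the treatment of DMSO, depth filters or the reference sequence. Averaging removes the replicate spread, the depth is unknown, and 28S gene copies cannot be told apart.

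From the scores, percentile ranks (ties averaged) and the top 10% (ties by position) were taken over all 5034 scored nucleotides. Low meant a rank below 50. Segments, the 9 parts of 28S and lists of functional and modified nucleotides came from general knowledge and the E. coli structure. Members and lists were chosen with earlier results of these data known. Named nucleotides were the 8 highest per reagent and those high with all 3 reagents or past the bound. The 5 widest rank differences per pair of reagents and direction were also named, among members in the top 10% of the leading reagent. List members and the 3 longest runs were named too, with the pseudouridines limited to some of the highest and lowest. Segment medians were given for all segments but the P-loop hairpin and the 3′ end. NAIN3 zeros were given as a count with the 2 largest groups, and members at the class limits for each reagent. Alternatives changed the limits, the ends, the register, the correlation and the nucleotides included. Tools were Python 3.11.15 with scipy 1.17.1, pandas 2.3.3 and numpy 2.4.6, and matplotlib 3.10.9 for the plots. Only the opposed classes and the replicate bound were run on simulated profiles with planted nucleotides. These profiles had no noise, so recovery was fixed by their making and checks the code alone.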

Additional observations from a re-analysis of the deposited data

How the results depend on the processing

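Of 80 alternative values for 13 results under 13 settings, 63 stayed close to the reported value and 17 moved. Values counted as close still varied for the NAIN3 share, which was reported as 5.99%. With the top 10% taken over 18S and 28S together it was 7.23%, beside 9.23% with AcIm and 8.98% with AcIN3. Without the segment of helices 81 to 88 and the strand to the ring, the NAIN3 share was 4.67%. With the top 5% as the limit, the shares of members in the class were 4.24% (AcIm), 6.23% (AcIN3) and 2.74% (NAIN3), and 1 member was high with AcIm and low with NAIN3. With the top 20%, the shares were 17.2%, 20.2% and 18.7%, and 7 members were high with AcIm and low with NAIN3 and 5 the reverse. Shares at these limits move by construction, but the order of AcIm and NAIN3 at the top 20% was the reverse of that at the top 10%. With NAIN3 moved by 1 nucleotide toward the 5′ end these counts were 15 and 9, and toward the 3′ end 14 and 4. For the counts at other limits or with NAIN3 moved, the share over all 28S nucleotides was not taken. They cannot be read as a property of the stretch. For AcIm and AcIN3, Pearson's r was 0.948. Without the segment of helices 81 to 88, an alternative chosen after seeing the data, the AcIm median was 0.06, below the 0.0655 of the rest of 28S. The AcIm share was then 10.7%, above the 10.0% of the rest, and the AcIN3 share was 9.81%, below the 9.97% of the rest. The bound of AcIm over NAIN3 was met at 1 member and rho of AcIm and AcIN3 was 0.907, with fewer nucleotides included. The cause of the moves with the register and with Pearson's r was not tested. No paired analysis was possible because the values analysed are means over the replicates. Scores at 0 or 1 have no order, and the depth, which limits every low score, is unknown.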

Other observations

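Along the stretch, cut at round numbers into windows of unequal length, the count of highly reactive members with NAIN3 varied. From nt 4176 to 4200 there was 1 with each reagent among 25 nucleotides. From nt 4201 to 4300 AcIm had 10, AcIN3 had 15 and NAIN3 had 8. From nt 4301 to 4400 there were 9, 8 and 6. From nt 4401 to 4500 there were 9, 8 and 1. From nt 4501 to 4576 there were 9, 9 and 8 among 76 nucleotides. With each reagent 9.99% of all scored nucleotides were in this class. Counts in windows outside the stretch were not taken. The NAIN3 count of 1 among the 100 nucleotides from nt 4401 to 4500 therefore cannot be read as a property of that window.

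Between AcIm and AcIN3, whose doses differ, the widest rank gaps lay at low AcIm scores, in the 5′ strand of helix 90. There nt 4455 had 0.0055 with AcIm and 0.1605 with AcIN3, at ranks of 2.10 and 67.1, and nt 4461 had 0 and 0.153. In the other direction nt 4444 had 0.063 and 0.049, at ranks of 48.8 and 26.6, and nt 4333 had 0.085 and 0.0675, at ranks of 58.2 and 36.4. These 4 nucleotides were chosen after their values were seen. Among members in the top 10% of the leading reagent, nt 4235 had 0.1645 with AcIm and 0.404 with AcIN3, nt 4291 had 0.2925 and 0.565, and nt 4347 had 0.3345 and 0.6575. With AcIm leading, nt 4466 had 0.3145 and 0.2655, nt 4545 had 0.362 and 0.3155, nt 4362 had 0.344 and 0.3195, and nt 4488 had 0.3645 and 0.3325. The AcIN3 score was the higher of the 2 at 365 of 401 members, against 3494 of 4633 nucleotides in the rest of 28S. The NAIN3 score was higher than that of AcIm at 127 members (31.7%), against 26.2% of the rest.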
